A study of Mus musculus with 4 samples.

Results

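The VEGF ligands and receptors are described here in endothelial cells of the mouse spleen. The group holds 7 genes: the receptors Kdr, Flt1 and Flt4 and the ligands Vegfa, Vegfb, Vegfc and Pgf. Their members were taken as every non-control array probe that carries 1 of these 7 gene names, which gave 11 of 39429 probes and 7 of 30139 symbols. The probes were matched by name alone, while the 7 genes were chosen with earlier results of these data known.

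RNA of 2 sorted populations was measured on 4 Agilent 1-colour arrays. ACKR4-positive cells were DAPI- CD45- CD31+ ACKR4-GFP+ spleen cells, with 2 arrays, and ACKR4-negative cells were DAPI- CD45- CD31+ ACKR4-GFP- spleen cells, also with 2 arrays. Both populations came from the same Ackr4GFP/wt mice, in which 1 copy of Ackr4, an atypical chemokine receptor that takes up chemokines without classical signalling, carries a green fluorescent protein reporter. The age and sex of the mice are not given in the sources used here. Spleens were digested with Dispase, Collagenase D and DNase I for 45 and then 20 minutes, CD45+ cells were depleted with beads, and 2 independent sorts were run, each on a pool from 2 to 3 mice. The labels name mouse 4 and mouse 5, each with 1 array of each population, although every sort pooled 2 to 3 mice. These mouse numbers were taken as those of the sorts, which are called sort 1 and sort 2 here. All spleen cells with CD31 on their surface pass this gate, so ACKR4-negative cells are a remainder and not 1 defined endothelial type.

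VEGF ligands are secreted growth factors that bind receptor tyrosine kinases on endothelium. KDR (VEGFR2) carries most of the signal of VEGF-A for division, survival and permeability. FLT1 (VEGFR1) binds VEGF-A, VEGF-B and PlGF tightly with weak kinase activity, and its soluble forms, which lack the membrane-spanning part, trap the ligands. FLT4 (VEGFR3) is the main receptor of VEGF-C and is best known from lymphatic endothelium, though fenestrated and sinusoidal vessels carry it too. Sinusoidal endothelium of liver, bone marrow and spleen is known to express several VEGF receptors.

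The probes decide which part of each transcript was read. Each is 60 bases long, and the first 30 bases are printed 5′ to 3′ for the probes of Kdr and Flt1, for the brighter probe of Vegfa and for Vegfc, the ligand whose level differed. Positions are those of the files, on mm9. Both Kdr probes read the minus strand of chromosome 5 and lie 1.1 kb apart, at chr5:76329309-76329368 (base 5377 of the transcript) and chr5:76330395-76330454 (base 4291). The Flt1 probes, also on the minus strand of chromosome 5, lie at chr5:148373791-148373850 at the 3′ end of the full-length transcript, at chr5:148446872-148446931 in the Ensembl transcript ENSMUST00000110529, and at chr5:148465976-148466035 in a placental clone. The last 2 lie 73.1 and 92.2 kb upstream of the first. The files do not say whether ENSMUST00000110529 is a soluble form. Vegfa has 2 probes on the minus strand of chromosome 17, of which the brighter lies at chr17:46154387-46154446 (base 3026 of the transcript). The Vegfc probe lies on the plus strand at chr8:55271533-55271592.
Kdr, base 5377: ctactgtatcctttagaattttaacctata
Kdr, base 4291: tgtttaaatggaagtggtcctgtcccggct
Flt1, full-length 3′ end: aagtaaagaaaagctatcgggattctctgg
Flt1, ENSMUST00000110529: ggagggtactgccgttcctgtgtggtattt
Flt1, placental clone: tccctatcccaactacacattcaatcttct
Vegfa, base 3026: cagatcggtgacagtcactagcttgtcctg
Vegfc: tctgtgtttattgaaccatgtggattactg
The remaining genes have 1 probe each, at chr11:49465646-49465705 for Flt4, chr19:7057245-7057304 for Vegfb and chr12:86508335-86510337 for Pgf, where the probe's span crosses an intron.

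A level is the mean log2 signal of a probe's 4 spots, less the array's 75th percentile over all non-control probes, so 0 is that percentile and 1 unit is a factor of 2. Levels of single probes are not compared between genes as amounts of RNA, because probes differ in binding strength. The marker sums further on add signals of different probes, so bright probes weigh most in them. Between 54.9% and 58.3% of non-control probes were above background on an array, and the signal at the 75th percentile came to 949 and 590 units in ACKR4-positive cells and 770 and 656 units in ACKR4-negative cells. The sort labels were checked on Ackr4 itself, which stood at -0.21 and 2.55 in ACKR4-positive cells and at -7.53 and -7.50, not well above background, in ACKR4-negative cells. That is at least 107-fold higher, with an adjusted p of 0.0166 from limma. Pecam1, which encodes CD31, had levels of 3.36 and 2.58 in ACKR4-positive cells and 3.41 and 2.84 in ACKR4-negative cells. Both populations were sorted on CD31, so Pecam1 checks the gate and not the endothelial label. That label was checked on Cdh5, which encodes VE-cadherin. Its levels were 4.67 and 4.09 in ACKR4-positive cells and 5.20 and 4.95 in ACKR4-negative cells. Both were above background on all 4 arrays. Precision rests on 2 arrays per group, and the arrays measured pooled mice, so the spread is that between sorts.

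Kdr and Vegfc were lower in ACKR4-positive cells, by 6.53-fold and 5.02-fold. No difference of Flt1, Vegfa, Vegfb or Pgf passed the test, and Flt4 lay higher in both ACKR4-positive arrays without passing it. Of the 11 probes, 10 were tested and 2 passed at an adjusted p under 0.05 in limma, both lower in ACKR4-positive cells. Over all 22183 tested probes the same threshold called 5.38%, with 3.62% lower and 1.76% higher. The groups did not overlap for 5 of the 10 member probes, 4 lower and 1 higher, against 44.3% of all tested probes, with 21.3% lower and 23.1% higher. Where groups do not overlap, the difference has the same sign in both sorts by definition. For the remaining tested member probes the sign differed between the sorts. With sort as a block, which pairs the arrays of the same sort, 3 member probes passed, all lower, against a background of 14.6%, with 8.21% lower and 6.37% higher.

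**Figure D1:**
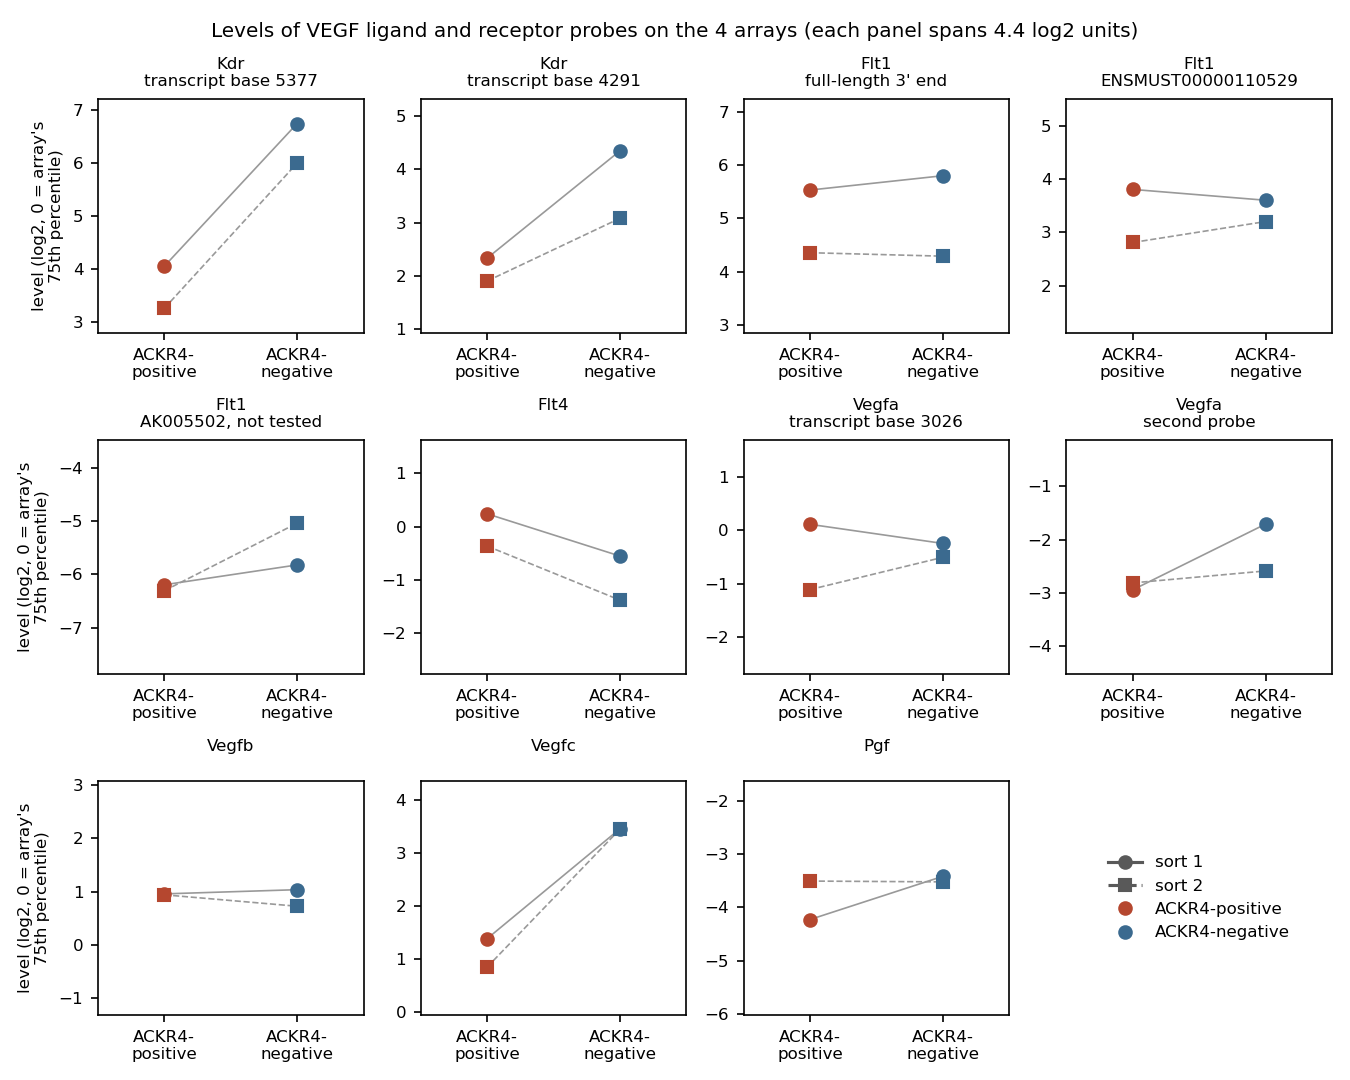
Level of each of the 11 probes on the 4 arrays (log2, 0 is the array's 75th percentile), ACKR4-positive left and ACKR4-negative right in each panel, with circles and solid lines for sort 1 and squares and dashed lines for sort 2. All panels span the same range. Kdr at transcript base 5377 fell to 4.06 and 3.26 in ACKR4-positive cells, against 6.74 and 5.99 in ACKR4-negative cells, and the lines of both sorts run in parallel.

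Among the receptors, Kdr differed most. Its brighter probe, at transcript base 5377, had levels of 4.06 and 3.26 in ACKR4-positive cells, against 6.74 and 5.99 in ACKR4-negative cells. The processed signals behind these were 15790.5 and 5671.8 units in ACKR4-positive cells, and 82136.2 and 41828.2 units in ACKR4-negative cells. Every ACKR4-positive array lay below every ACKR4-negative array, and the gap was nearly the same in the 2 sorts, at -2.68 in sort 1 and -2.73 in sort 2. The log2 difference was -2.71 ± 0.45 (SE, n = 2 arrays per group), with a 95% interval of -3.88 to -1.53. The adjusted p was 0.0450 in limma and 0.00157 with sort as a block. Leaving out any 1 of the 4 arrays kept the direction and ended the call, with differences of -3.10 to -2.31 and adjusted p of 0.0654 to 0.147. All spots of the probe were above background on both ACKR4-positive arrays. In bulk RNA, fewer cells with a transcript and less of it per cell cannot be told apart.

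The second Kdr probe, at transcript base 4291, moved in the same direction. It had levels of 2.33 and 1.90 in ACKR4-positive cells and 4.35 and 3.08 in ACKR4-negative cells, again with no overlap. The difference of -1.60 ± 0.52 (95% interval -2.95 to -0.24) had an adjusted p of 0.234 in limma and of 0.0208 with sort as a block. The 2 Kdr probes differed in the size of their change by -1.11 on the log2 scale, -0.66 in sort 1 and -1.55 in sort 2. A test of unequal change between the probes of a gene, chosen after seeing the data, gave a raw p of 0.175 for Kdr, where it called 0.328% of 3959 genes with several tested probes.

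Flt1 showed no difference that these arrays could resolve. The probe at the full-length 3′ end had levels of 5.53 and 4.36 in ACKR4-positive cells and 5.80 and 4.29 in ACKR4-negative cells. The ranges overlapped, and the 2 sorts lay further apart than the 2 populations. The difference was -0.10 ± 0.68, with a 95% interval of -1.90 to 1.69 and an adjusted p of 0.975. Such an interval does not show equal levels, since a difference as large as 1.69 or -1.90 on the log2 scale lies within it. The fit behind this interval counts the gap between the sorts as error. With sort as a block the standard error was 0.23 and the adjusted p 0.811.

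The Flt1 transcript ENSMUST00000110529 had levels of 3.81 and 2.81 in ACKR4-positive cells and 3.61 and 3.21 in ACKR4-negative cells. The ACKR4-positive arrays lay outside the ACKR4-negative ones on both sides. The difference was -0.09 ± 0.45 (95% interval -1.26 to 1.07, adjusted p 0.964). Between this probe and the 3′ end probe the change differed by -0.01 on the log2 scale, with -0.47 in sort 1 and 0.46 in sort 2, and the test of unequal change gave a raw p of 0.994. The placental clone probe was not well above background in either population, at -6.19 and -6.31 in ACKR4-positive cells and -5.82 and -5.04 in ACKR4-negative cells, and was not tested.

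Flt4, the VEGF-C receptor, went the other way from Kdr. It had levels of 0.24 and -0.37 in ACKR4-positive cells, against -0.55 and -1.38 in ACKR4-negative cells. The groups did not overlap, and the difference was 0.79 in sort 1 and 1.02 in sort 2. The fit gave 0.90 ± 0.43 (95% interval -0.23 to 2.04) with an adjusted p of 0.454. With sort as a block the standard error was 0.23 and the adjusted p 0.0587, so Flt4 passed neither. Prox1, the transcription factor that defines lymphatic endothelium, had levels of -0.06 and -2.07 in ACKR4-positive cells and -0.32 and -2.64 in ACKR4-negative cells, with an adjusted p of 0.926. Of 7 tested lymphatic markers, 1 was higher and 1 lower, with 2 higher and 2 lower with sort as a block. In both sorts 3 of the 7 lay higher and 3 lower. Sema3d, the higher one, had levels of 1.77 and 0.47 in ACKR4-positive cells and -2.81 and -3.72 in ACKR4-negative cells. Mmrn1, the lower one, had -5.28 and -6.29 in ACKR4-positive cells and -0.35 and 0.20 in ACKR4-negative cells. The signal summed over all 9 markers on the array was 7.00 and 3.60 times the 75th percentile in ACKR4-positive cells. In ACKR4-negative cells it was 2.75 and 2.40 times. Sema3d and Itga9 had the highest levels of the list in ACKR4-positive cells and weigh most in those sums. The part of lymphatic cells in the Flt4 levels was not tested.

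**Figure D2:**
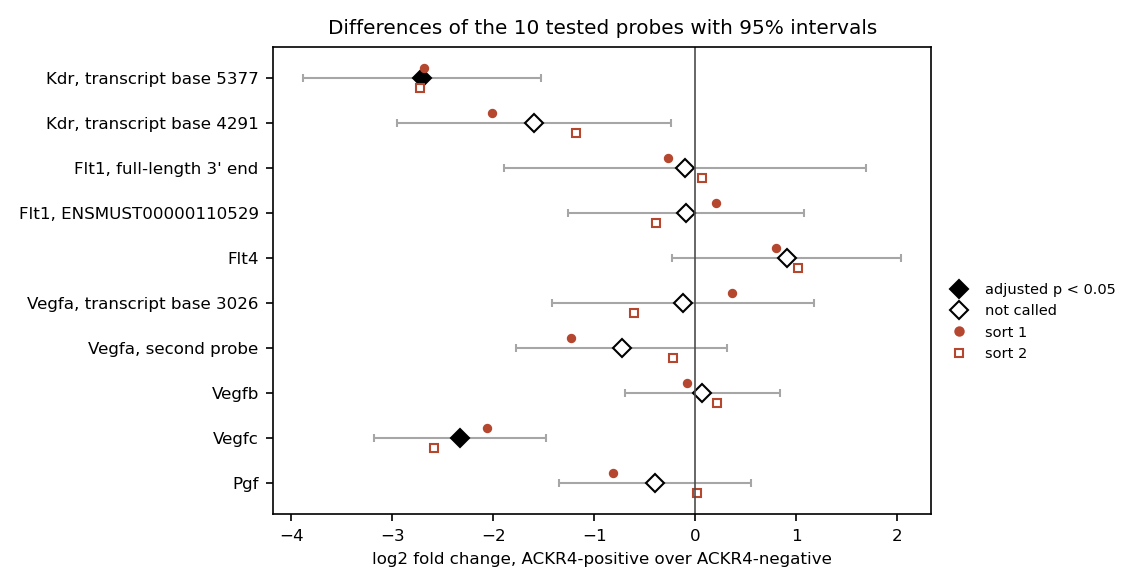
Log2 fold change of the 10 tested probes, ACKR4-positive over ACKR4-negative (diamonds, filled where the adjusted p passed, with 95% intervals), and the difference within sort 1 (circles) and sort 2 (open squares). The intervals come from the fit without sort as a block. Kdr at base 5377 and Vegfc, at -2.71 and -2.33, are the filled ones, and the interval of Flt4 reaches -0.23.

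Among the ligands, Vegfc stood apart. VEGF-C binds FLT4 and, once processed, KDR, and drives lymphatic growth. Vegfc had levels of 1.39 and 0.85 in ACKR4-positive cells, against 3.45 and 3.44 in ACKR4-negative cells, with processed signals of 2480 and 1065 units in ACKR4-positive cells and 8413 and 7135 units in ACKR4-negative cells. Both ACKR4-positive arrays lay far below the ACKR4-negative pair, which differed by 0.01. The difference was -2.33 ± 0.32 (95% interval -3.18 to -1.48, adjusted p 0.0292, or 0.00363 with sort as a block). It was -2.07 in sort 1 and -2.59 in sort 2. Without any 1 of the 4 arrays it stayed between -2.60 and -2.06 and missed the threshold, with adjusted p of 0.0587 to 0.125.

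Vegfa, the ligand of both KDR and FLT1, was read by 2 probes, of which neither passed the test. The probe at base 3026 had levels of 0.11 and -1.11 in ACKR4-positive cells and -0.25 and -0.51 in ACKR4-negative cells. The second probe had -2.95 and -2.82 in ACKR4-positive cells and -1.71 and -2.59 in ACKR4-negative cells. At base 3026 the ranges overlapped and the sorts disagreed in sign, with 0.36 in sort 1 and -0.61 in sort 2. For the second probe the ranges did not overlap and both sorts were negative, at -1.24 and -0.23. The differences were -0.12 ± 0.49 (95% interval -1.42 to 1.17, adjusted p 0.957) and -0.73 ± 0.40 (-1.78 to 0.32, adjusted p 0.524), and the test of unequal change between the probes gave a raw p of 0.400.

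Vegfb, a ligand of FLT1 linked to fatty acid uptake, had the smallest standard error of the tested members. It had levels of 0.96 and 0.94 in ACKR4-positive cells and 1.04 and 0.73 in ACKR4-negative cells. The ACKR4-positive arrays lay between the ACKR4-negative ones, and the difference was 0.07 ± 0.29 (95% interval -0.70 to 0.83, adjusted p 0.961). Pgf, which encodes the FLT1 ligand PlGF, had levels of -4.23 and -3.50 in ACKR4-positive cells and -3.41 and -3.52 in ACKR4-negative cells. One ACKR4-positive array was low and the other 3 arrays lay together. Its difference was -0.40 ± 0.36 (95% interval -1.35 to 0.56, adjusted p 0.748).

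The receptor levels also differed between the sorts. Sort 1 exceeded sort 2 by 0.79 in ACKR4-positive cells and 0.74 in ACKR4-negative cells for the brighter Kdr probe, and by 0.43 and 1.27 for the second. For the 3′ end of Flt1 the gap was 1.18 in ACKR4-positive cells and 1.51 in ACKR4-negative cells, and for ENSMUST00000110529 it was 1.00 and 0.40. Flt4 had a gap of 0.61 in ACKR4-positive cells and 0.83 in ACKR4-negative cells. All 5 tested receptor probes thus lay higher in sort 1 in both populations, as 28.8% of all tested probes did. Of the ligands, the Vegfa probe at base 3026 had gaps of 1.23 in ACKR4-positive cells and 0.26 in ACKR4-negative cells, and the second Vegfa probe of -0.13 and 0.88. The gaps were 0.53 and 0.01 for Vegfc, 0.02 and 0.31 for Vegfb, and -0.72 and 0.10 for Pgf. Within the sorts, the differences between the populations varied less than the levels did for the brighter Kdr probe, for Flt4 and for the 3′ end of Flt1. For the last they were -0.27 in sort 1 and 0.07 in sort 2.

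**Figure D3:**
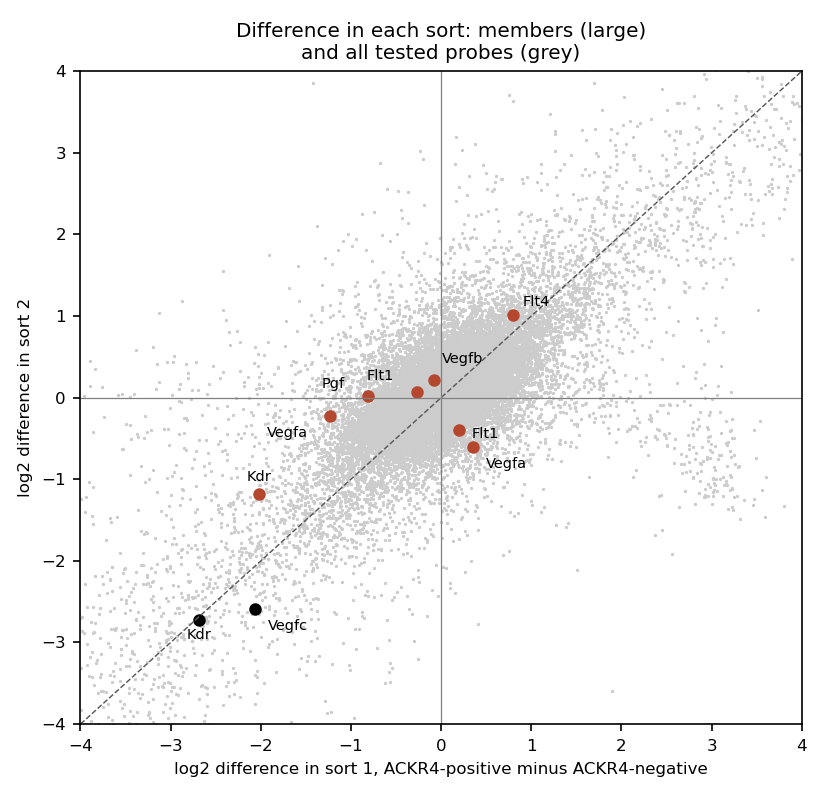
Log2 difference of each probe in sort 1 (x axis) and sort 2 (y axis), ACKR4-positive minus ACKR4-negative, with the 10 member probes as large points (black where called) over all tested probes in grey and a dashed line of equality. Axes end at 4 log2 units, which leaves 626 grey probes outside. Kdr at base 5377 lies on the line at -2.68 and -2.73, Vegfc lies near it, and Flt4 lies alone among the members at the upper right.

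The promoters of Kdr and Vegfc, which were both lower, and of Flt1, for which no difference passed the test, are shown because transcription factors of VEGF receptor genes are described further on. Each is the 250 bases before the RefSeq start on GRCm38.p6, 5′ to 3′ on the gene's strand, with the ETS core GGAA on either strand (GGAA or TTCC) in capitals. They lie at chr5:75978456-75978705 (minus strand) for Kdr, chr8:54077282-54077531 (plus strand) for Vegfc and chr5:147726012-147726261 (minus strand) for Flt1.
Kdr: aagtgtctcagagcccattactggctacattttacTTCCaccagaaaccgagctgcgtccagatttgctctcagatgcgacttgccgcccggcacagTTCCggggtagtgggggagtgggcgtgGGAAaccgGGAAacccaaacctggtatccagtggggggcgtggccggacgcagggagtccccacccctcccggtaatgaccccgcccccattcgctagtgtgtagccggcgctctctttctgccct
Vegfc: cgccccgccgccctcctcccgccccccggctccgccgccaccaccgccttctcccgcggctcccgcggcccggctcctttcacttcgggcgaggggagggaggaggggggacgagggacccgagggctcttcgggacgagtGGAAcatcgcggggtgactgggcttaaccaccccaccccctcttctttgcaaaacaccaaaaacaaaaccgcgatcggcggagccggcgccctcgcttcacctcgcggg
Flt1: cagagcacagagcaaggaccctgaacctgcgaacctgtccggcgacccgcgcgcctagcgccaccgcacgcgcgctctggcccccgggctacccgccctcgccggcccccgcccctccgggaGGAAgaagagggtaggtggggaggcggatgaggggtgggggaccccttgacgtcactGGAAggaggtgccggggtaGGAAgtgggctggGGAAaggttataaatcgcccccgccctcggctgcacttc
The core occurred 4 times in the Kdr window, 1 time in that of Vegfc and 4 times in that of Flt1, and 93.4% of 32851 windows of the same length hold it. All 3 windows hold the SP1 box GGGCGG on either strand, as 32.7% of windows do. The Flt1 window also holds the full cyclic AMP element TGACGTCA, found in 1.5% of windows, and a TATAAA, found in 12.4% on either strand. Kdr has 2 and Flt1 has 1 of the hypoxia core GCGTG, found in 28.2% of windows, and the Vegfc window has none. GC content was 61.6% for Kdr, 71.6% for Vegfc and 70.4% for Flt1, against a median of 52.4% over all windows. These are matches of letters and not binding sites.

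Other genes of the VEGF pathway were taken from 6 lists. Of 136 listed genes 123 were tested, each by its brightest tested probe, and 2 were higher, 20 lower and 101 not called. That is 17.9% called, where the background over 17352 genes was 5.52%, with 3.69% lower and 1.82% higher, and their median difference was -0.11, against 0.04 over all genes. The lists were drawn up with earlier results of these arrays known, so these shares are descriptions. They also share called genes with the marker lists further on. Sox17, Dll4, Hey1 and Efnb2 are arterial markers there, Aplnr and Kcne3 capillary markers and Emcn a general endothelial marker. The counts of pathway genes and of markers are thus not separate observations. Without the ACKR4-negative array of sort 1 the count of called genes was 14, 0 higher and 14 lower.

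Co-receptors and modulators of VEGF receptors held 13 tested genes, of which 4 were lower, 1 was higher and 8 were not called, with a median difference of -0.49. Nrp1, the co-receptor that binds VEGF-A together with KDR, had levels of -5.72 and -7.11 in ACKR4-positive cells, not well above background, and 2.06 and 1.32 in ACKR4-negative cells. Nrp1 was thus at least 148-fold lower (adjusted p 0.00913). Nrp2, the co-receptor of VEGF-C and FLT4, did not share this, with 2.84 and 1.96 in ACKR4-positive cells and 2.28 and 2.45 in ACKR4-negative cells and a difference of 0.04 (adjusted p 0.987).

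Efnb2, encoding ephrin-B2, which promotes the uptake of KDR and FLT4, fell by 3.91 ± 0.37 on the log2 scale in ACKR4-positive cells (adjusted p 0.0130). Gpc1, a heparan sulfate proteoglycan, fell by 3.58 ± 0.34 (adjusted p 0.0130). Emcn, encoding endomucin, a surface glycoprotein of venous and capillary endothelium that takes part in KDR uptake, fell by 5.24 ± 0.86 (adjusted p 0.0437). The gene that rose in this list was Dab2, a clathrin adaptor for receptor uptake, with levels of 4.04 and 4.15 in ACKR4-positive cells and 1.62 and 2.26 in ACKR4-negative cells, a difference of 2.16 ± 0.35 (adjusted p 0.0415). Ptprb, the phosphatase VE-PTP that restrains KDR, had a difference of 0.69 with an adjusted p of 0.689.

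Few of the signal transducers below the receptors passed the test, which does not show equal levels. Of 40 tested genes 2 were lower, 0 higher and 38 not called, with a median difference of -0.09. An unadjusted p under 0.05 in limma was found for 9 of them, against 16% of all genes. With sort as a block 6 were called, all lower, where 14.8% of all genes were called, 8.36% lower and 6.43% higher. Nfatc2, a calcium-activated transcription factor, was not well above background in ACKR4-positive cells and at least 3.22-fold lower there (adjusted p 0.0421). The brighter probe of Nck2, an adaptor between receptors and actin, fell by 1.77 (adjusted p 0.0406), while its other probe gave 0.48 (adjusted p 0.702). Plcg1, the phospholipase that KDR activates, had a difference of -0.44 (adjusted p 0.602), and Nos3, the endothelial nitric oxide synthase, of 0.11 (adjusted p 0.934). Hspb1, a heat shock protein phosphorylated after VEGF, gave -2.64 with an adjusted p of 0.0526, or 0.00644 with sort as a block. The brighter probe of Prkca, a protein kinase C, gave -1.39 with 0.0868, or 0.0192 with the block, while a dimmer Prkca probe gave -3.19 with 0.0246.

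Genes known to be induced by VEGF in endothelium had 24 tested members, with 9 lower, 0 higher and 15 not called, and a median of -0.48. With sort as a block 9 were lower and 2 higher, and the higher ones were Icam1, an adhesion molecule, at 1.20 (adjusted p 0.0286, against 0.118 without the block), and Mmp14, a membrane-bound protease, at 1.01 (0.0456, against 0.719). Esm1, the secreted proteoglycan endocan of tip cells, had levels of -4.06 and -2.86 in ACKR4-positive cells, against 7.39 and 7.78 in ACKR4-negative cells (difference -11.05 ± 0.50, adjusted p 0.00659). Aplnr, the apelin receptor, was not well above background in ACKR4-positive cells and at least 1104-fold lower there. The same held for Dll4, the Notch ligand of arteries and tip cells, at least 200-fold lower, and for Angpt2, the TEK ligand, at least 88.3-fold lower. Kcne3, a potassium channel subunit, with a fitted difference of -7.67, and Hlx, a homeobox factor, with -6.94, were also called, and each was well above background on 1 of the 2 ACKR4-positive arrays. Among the other called genes Nid2, a basement membrane protein, fell by 3.51, Ets1 fell by 2.70 and Cd34, a surface sialomucin, fell by 2.25. In contrast to these, Rcan1, a calcineurin inhibitor induced through NFAT, had levels of 0.69 and 0.09 in ACKR4-positive cells and 0.31 and -0.08 in ACKR4-negative cells (adjusted p 0.830).

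Inhibitors of VEGF signalling included 15 tested genes, with 3 lower, 0 higher and 12 not called, and a median of 0.01. Thbs1, the secreted antiangiogenic protein thrombospondin, which platelets also hold, fell by 5.96 ± 0.39 (adjusted p 0.00842). Spry1 and Spry4, feedback inhibitors of the RAS and ERK route, were not well above background in ACKR4-positive cells and at least 62.6-fold and 10.3-fold lower there. Spred1, of a related family, gave -0.99 (adjusted p 0.255, or 0.0435 with sort as a block). Of 14 tested hypoxia sensors and regulators of Vegfa, 0 passed in limma, with a median of -0.05, while 3 had an unadjusted p under 0.05, against 16% of all genes, and 2 passed with sort as a block, against 14.8%. Hif1a, the oxygen-sensitive transcription factor subunit, had a difference of 0.47 (adjusted p 0.703) and Epas1, its endothelial relative, of -0.23 (adjusted p 0.874). The lowest p in that list were those of Adm, encoding adrenomedullin, at -1.76 (adjusted p 0.0806, or 0.0177 with the block), and Slc2a1, the glucose transporter, at -1.40 (adjusted p 0.111, or 0.0240 with the block), ahead of Ldha, a glycolytic enzyme, at -0.88 (adjusted p 0.290) and Hif1an, a hydroxylase that limits HIF activity, at 0.56 (adjusted p 0.626).

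Transcription factors of VEGF receptor genes had 19 tested members, with 3 lower, 1 higher and 15 not called, and a median of -0.20. Sox17, the SoxF factor of arteries, was at least 886-fold lower in ACKR4-positive cells, where it was not well above background. Hey1, a Notch target of arteries, fell by 7.48 ± 0.33 (adjusted p 0.00659), and Ets1 by 2.70 ± 0.41 (adjusted p 0.0377). Nr2f2, encoding the venous factor COUP-TFII, had levels of 3.75 and 3.56 in ACKR4-positive cells and 1.72 and 1.67 in ACKR4-negative cells, a difference of 1.96 ± 0.28 (adjusted p 0.0316). The ETS factors Erg and Fli1 gave -0.18 (adjusted p 0.953) and -1.11 (adjusted p 0.270, or 0.0311 with sort as a block), and Sox18 gave -0.65 (adjusted p 0.521).

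**Figure D4:**
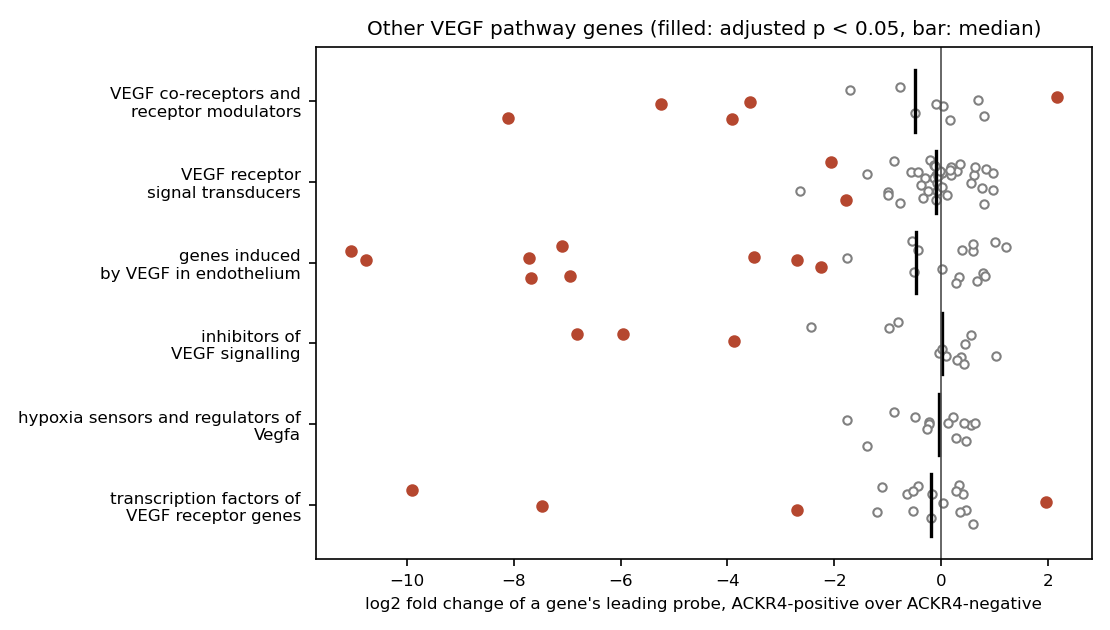
Log2 fold change of the brightest tested probe of each gene in the 6 VEGF pathway lists, ACKR4-positive over ACKR4-negative, with filled points for genes called and bars for list medians. The filled points spread to -11.05 for Esm1 while list medians lie between -0.49 and 0.01. The 2 filled points above 0 are Dab2 at 2.16 and Nr2f2 at 1.96.

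The genes whose pattern over the 4 arrays lay nearest to each member were found among 13075 named genes by the distance between levels centred on each probe's mean. Nearest to Kdr were Prokr1 at 0.27 log2 units, Tmcc3 at 0.32 and Lama5, a laminin chain, at 0.32. Prokr1 was well above background on neither ACKR4-positive array, so its distance rests partly on background signal, and every other gene named here was above background on all 4 arrays. Vegfc lay nearest to Plxnb2 at 0.10, Pde2a at 0.11 and Slc15a3 at 0.13. For Flt4 they were Mx2 at 0.07, Jun at 0.09 and Gata6 at 0.09. Stxbp3-ps, Usp9x and Hdac2 followed Flt1 at 0.06, 0.08 and 0.11. Like Flt1 they were higher in sort 1 in both populations, which follows from how they were picked. The nearest genes of the other ligands lay within 0.13 and were Mapt, Arhgef11 and Kremen1 for Vegfa, Mcoln1, Tcl1b2 and Cyp4f13 for Vegfb, and Rpp40, Psma6 and Borcs8 for Pgf. With 4 arrays such likeness is a description.

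Arterial and capillary markers were mostly lower in ACKR4-positive cells, as Kdr and Vegfc were, while the called sinusoidal markers were higher. Of 10 tested arterial markers 8 were lower in ACKR4-positive cells, and of 10 capillary markers 7 were, with 0 higher in either list. Over all genes 3.69% were lower and 1.82% higher. Their summed signal, in multiples of the array's 75th percentile, was 7.35 and 13.6 in ACKR4-positive cells against 89.9 and 112 in ACKR4-negative cells for arterial markers, and 83.6 and 62.9 against 479 and 505 for capillary markers. Of 10 sinusoidal markers 3 were higher and 0 lower, with sums of 500 and 633 in ACKR4-positive cells and 213 and 154 in ACKR4-negative cells. Clec4g, a sinusoidal lectin, made up 172 and 381 of these sums in ACKR4-positive cells and 4.96 and 12.0 in ACKR4-negative cells, and the other 9 markers summed to 328 and 252 in ACKR4-positive cells and to 208 and 142 in ACKR4-negative cells. In both sorts 5 of the 10 lay higher and 3 lower, the lower ones being Mrc1, Fcgr2b and Gata4. The 12 general endothelial markers included 2 that were lower, with sums of 518 and 683 in ACKR4-positive cells and 651 and 751 in ACKR4-negative cells. The part of these vessel types in the levels of Kdr and Vegfc was not tested.

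Markers of other cells moved as well. The share of all genes called lower, to set beside the counts that follow, was 3.69% in limma and 8.36% with sort as a block. Of 12 megakaryocyte and platelet markers 10 were lower in ACKR4-positive cells, with sums of 1.28 and 2.78 in ACKR4-positive cells and 103 and 236 in ACKR4-negative cells, and Itga2b, Gp5, Gp6 and Tubb1 were not well above background in ACKR4-positive cells. Of 11 tested mural and smooth muscle markers 4 were lower, or 11 with sort as a block, with sums of 18.4 and 11.1 in ACKR4-positive cells and 87.2 and 124 in ACKR4-negative cells, and Rgs5, Myh11 and Cnn1 were not well above background in ACKR4-positive cells. Mcam, Abcc9 and Kcnj8, which some endothelial cells also express, made up 17.3 and 8.81 of the mural sums in ACKR4-positive cells and 72.4 and 60.9 in ACKR4-negative cells, and the CD31+ gate is meant to leave mural cells out. The part of either cell type in the level of Vegfc was not tested. Erythroid markers, 2 of 7 lower, summed to 17.6 and 60.5 in ACKR4-positive cells and to 376 and 27.2 in ACKR4-negative cells, with the high value in sort 1. Of 9 fibroblastic reticular, 10 macrophage and 6 granulocyte or monocyte markers 0 passed in limma, with 4, 1 and 1 at an unadjusted p under 0.05, where 16% of all genes were, and 5, 3 and 2 called with sort as a block, where 14.8% of all genes were. Of 7 lymphocyte markers 1 was lower.

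**Figure D5:**
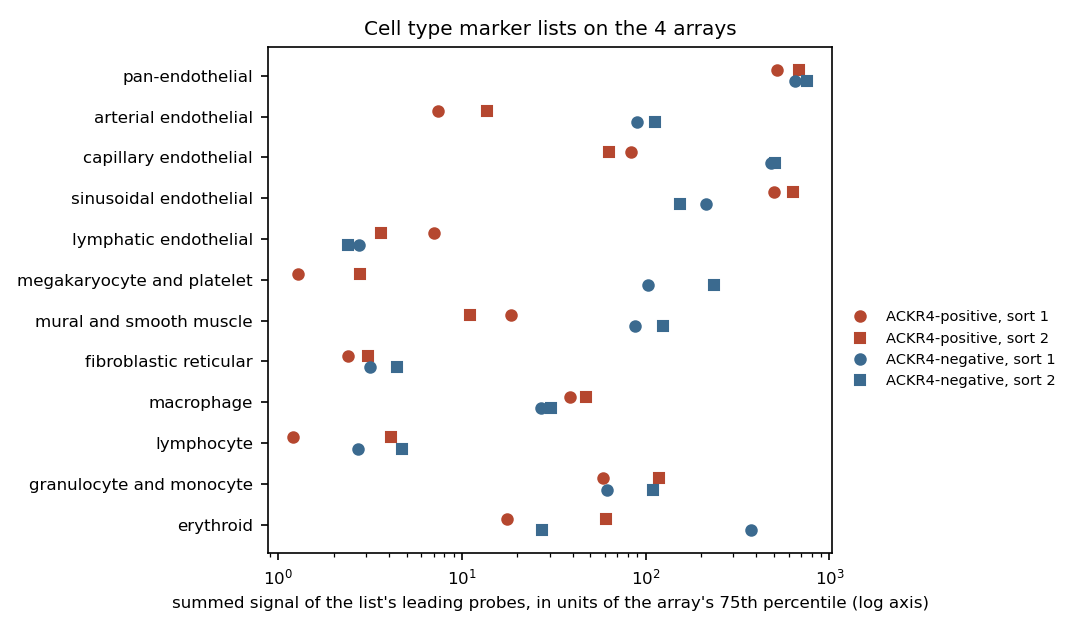
Summed signal of the leading probes of each marker list on the 4 arrays, in units of the array's 75th percentile on a log axis, with ACKR4-positive arrays in red above ACKR4-negative arrays in blue. Megakaryocyte and platelet markers lie at 1.28 and 2.78 in ACKR4-positive cells and at 103 and 236 in ACKR4-negative cells, and general endothelial markers lie between 518 and 751 on all arrays.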

How the data were processed

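Per the file headers, the intensity values of the 4 scanner files came from the authors' run of Agilent Feature Extraction 10.7.3.1, as processed signals with background subtracted and spatial trends removed within each array. All 4 arrays lay on 1 slide. Outlier spots, 1.91% to 1.96% per array, were left out, and the other spots of each probe were averaged as log2 signal minus the array's 75th percentile. The table of processed intensity values that the authors deposited, scaled to a 75th percentile of 1498 to 1506, served as an alternative and correlated with these levels at 0.995 to 0.998. Probes entered the test if both arrays of 1 or both groups had more than 50% of their spots well above background. Differences are ACKR4-positive minus ACKR4-negative, from lmFit and eBayes of limma 3.58.1 (R 4.3.3), 2-sided and adjusted by Benjamini-Hochberg over 22183 probes at a threshold of 0.05. Errors are standard errors and intervals cover 95% without adjustment, both from the fit without sort as a block unless stated. A fold given as "at least" sets each dim level no lower than the dimmest probe well above background on that array. A gene's leading probe is its brightest tested one, or its brightest where none was tested. Marker sums include both kinds. The labels give both populations the same mouse numbers, 4 and 5, which were taken as sort numbers. These pair the samples, and deviations of same-numbered arrays correlated at 0.60. Named pathway genes were up to 4 per list with the smallest p, plus those that complete a count of 5 or fewer. Plcg1, Nos3, Rcan1, Icam1, Mmp14, Clec4g, Hif1a, Epas1, Erg, Fli1, Sox18, Nrp2, Ptprb, Prox1, Itga9 and the remaining called genes were added for their roles or to complete a list after values were seen. Members and lists were chosen with earlier results of these data known. The sequence and position of the second Vegfa probe are not reported here. Promoters are from RefSeq and matched 7 of 7 genes by symbol. The fits were tested on simulated data. Figures used matplotlib 3.10.9 in Python 3.11.15.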

Additional observations from a re-analysis of the deposited data

How the results depend on the processing

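Of 10 results under 18 alternatives, 173 values in all, 135 kept their direction and side of the threshold (counts within 1.5 times), 14 kept direction but lost the call, 18 counts moved and 6 differences reversed. The cause of these changes was not tested. Where 1 array was left out, the fit also held fewer arrays. The probes called over the whole table, 1194, became 503 with the stricter filter on dim probes, 556 with a 2-fold minimum and 3235 with sort as a replicate block. Leaving out 1 array gave 614 to 1058, with 644 without the ACKR4-positive array of sort 1, 614 without the ACKR4-negative array of sort 1 and 665 without that of sort 2. The member probes called, 2, became 1 with quantile normalization, median centring, the stricter filter or the mean of a gene's probes, 0 with a 2-fold minimum and 0 without any 1 of the 4 arrays. They became 3 with the block, which changed no call of another member probe. The called pathway genes, 22, became 9 with the stricter filter, 14 with a 2-fold minimum and 14 to 16 without 1 array. Kdr missed the threshold at -2.55 with quantile normalization (adjusted p 0.115), -2.64 with median centring (0.0571), -2.71 with the stricter filter (0.0579), -2.15 as the mean of its probes (0.0901) and -2.71 with a 2-fold minimum (0.160), and at -3.10 to -2.31 without 1 array. Vegfc missed it at -2.33 with a 2-fold minimum (0.132) and at -2.60 to -2.06 without 1 array. Uncalled differences changed sign for Flt1, 0.10 with quantile normalization and -0.86 to 0.65 without 1 array, and without 1 array for Vegfa, -0.74 to 0.49, and Vegfb, -0.087 to 0.22. Flt4 and Pgf kept their direction in all 17 alternatives run for them. Median centring moved the median difference of all probes to 0.11, against 0.04, and Kdr and Vegfc stayed lower. The spots of the 10 tested member probes were above background on all 4 arrays.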
